A study of Mus musculus with 12 samples.

Results

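Gene expression was compared between the KK-Ay arrays titled 16Y (2 arrays) and the KK-Ay arrays titled 6Y (2 arrays), which are 4 of the 12 mouse arrays of the series. The members of the comparison were chosen by the array titles alone, and all 35556 transcript clusters of the array entered it. A transcript cluster is a set of probes summarized to 1 value, here a log2 signal. Of the clusters, 21789 carried 1 gene symbol, 1621 several and 12146 none, so a cluster is not always 1 known transcript. KK is an inbred strain with polygenic insulin resistance, and KK-Ay (KK.Cg-Ay/J) mice carry in addition the A-y allele of agouti, under which agouti is expressed throughout the body and obesity and type 2 diabetes (T2D) develop. Both groups share strain and allele and were listed as T2D, on lab chow and without a stated treatment, and they differ in the number in their titles. What that number stands for is not stated. The methods give 1 age, 42 weeks, for the KK and KK-Ay mice as a whole and tie no age to an array title, so the ages of 6Y and 16Y are taken as unknown here.

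The other arrays were 2 of KK-Ay mice titled 42Y, 2 of KK mice titled 42WKK, 2 control arrays titled 1-3 and 1-5 whose strain is not given, and 2 titled 6K. The sample records list 6K as T2D and the design text lists it as control, so 6K was left out of the fit, and entered only an alternative with all 12 arrays. For 42Y the same sources disagree the other way round, and the design text was followed. The series holds no KK arrays titled 16, so whether a difference between 16Y and 6Y depends on the allele that both carry cannot be told. Whether the 2 arrays of a group came from different mice is not stated, and a p-value here may reflect technical spread alone.

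The tissue is liver by the methods and blood by the sample records. Hepatocyte markers were at the top of the scale, with list medians of 13.32 and 13.25 on the 6Y arrays and 12.95 and 13.02 on the 16Y arrays. T cell and neutrophil markers were far lower, with medians from 3.75 to 4.64 on these 4 arrays. Each lay between the lower quartile (3.29 to 3.44) and the median (4.76 to 4.87) of the signals on its array. The 1 erythroid marker with a value, Alas2 of heme synthesis, was high, at 9.76 and 9.58 in 6Y against 9.44 and 9.44 in 16Y. Agouti checked the allele. It read 6.78 to 7.06 on the 6 arrays titled Y and 5.20 to 5.51 on the other 6. Raly and Eif2s2, neighbours of agouti that the A-y deletion disrupts, read lower on the 6 Y arrays than on any other array, between 6.59 and 6.81 against 7.21 to 7.73 for Raly and between 7.2 and 7.67 against 8.15 to 8.88 for Eif2s2. The difference between 16Y and 6Y was -0.07 for agouti (standard error 0.14, adjusted p = 0.844), -0.07 for Raly (standard error 0.14, adjusted p = 0.846) and -0.36 for Eif2s2 (standard error 0.11, adjusted p = 0.154), from limma.

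The liver makes cholesterol and fatty acids from acetyl-CoA, stores fat in lipid droplets and secretes lipoproteins. The sterol-sensing transcription factor SREBP2 drives the genes of cholesterol synthesis, and SREBP1c drives those of fatty acid synthesis. In the young liver, hepatocytes still divide and express fetal and imprinted growth genes that fade as the animal matures. Liver genes also follow the circadian clock, through the repressors Nr1d1 and Nr1d2 among others, and the sex pattern of growth hormone secretion.

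Of the 35556 clusters, 194 were called at an adjusted p under 0.05 (0.546%; limma with Benjamini-Hochberg adjustment over all clusters), 71 higher and 123 lower in 16Y. With 1 cluster per gene there were 19938 genes, of which 33 were called higher (0.166%) and 91 lower (0.456%). Both 16Y arrays lay above both 6Y arrays for 5168 genes (25.9%) and below them for 5040 (25.3%). An unadjusted limma p under 0.05 was reached by 6218 of the 35556 clusters. With only clusters of 1 symbol fitted it was reached by 4407 of 21789. Every share of list members given below is to be read against these backgrounds. The median difference of all genes was 0.01, and that of the called genes was 1.19 for those higher and -0.93 for those lower. Across all clusters the median difference was 0.08 for clusters with a mean signal under 4 and -0.06 for those over 8, and the lower quartile of the arrays was 3.44 and 3.39 in 16Y against 3.31 and 3.29 in 6Y. With each array centred on its median, 563 clusters were called, 104 higher and 459 lower, so that 18.5% of the calls were higher in place of 36.6%.

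The count rested on the pooled spread and on single arrays. It was 0 without 16Y-2, 2 without 16Y-1, 6 without 6Y-2, 20 without 6Y-1, 15 without either 42WKK array, 62 without either control array and 334 without either 42Y array. With 1 array of a group left out, the lone array was assumed to vary like the other groups. Of the 548 genes in the lists described below, 23 were called, against 0 without either 16Y array, 2 without 6Y-2, 5 without 6Y-1, 7 without either 42WKK array, 15 without either control array and 35 without either 42Y array.

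Cholesterol synthesis genes had lower signals in 16Y than in 6Y along the whole pathway. Of 20 genes listed, 17 had a value; 4 fell and 0 rose, and all 17 had both 16Y arrays below both 6Y arrays. Their median difference was -1.49, against 0.01 for all genes. The promoters of these genes are shown first. Of the 14 that had a RefSeq promoter window (GRCm38.p6), all 14 held at least 1 CCAAT box, the site of the factor NF-Y, within 250 bases before a start (CCAAT on either strand, any of several starts of a gene), against 37.5% of all 27025 genes with a window. Of the genes called lower in 16Y, 39.1% held one, and of those called higher, 33.3%. The sterol element TCACNCCAC, searched on both strands, lay in 1 of the 14, Hmgcs1, and in 1.22% of all genes with a window, and the 2 motifs did not overlap there. These are matches of letters and do not show binding. Each stretch printed here ends at the base before the start of its gene, except the last, which lies between the starts of 2 genes, with each CCAAT match (ATTGG on the other strand) and the sterol element in capitals.

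Lss, chr10:76531455-76531604, plus strand: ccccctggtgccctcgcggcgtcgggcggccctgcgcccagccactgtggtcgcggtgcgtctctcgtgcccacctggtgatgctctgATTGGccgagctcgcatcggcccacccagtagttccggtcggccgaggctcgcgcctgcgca
Tm7sf2, chr19:6067851-6068000, minus strand: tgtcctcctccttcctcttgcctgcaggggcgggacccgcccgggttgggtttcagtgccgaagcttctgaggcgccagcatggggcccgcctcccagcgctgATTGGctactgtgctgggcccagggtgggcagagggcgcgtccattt
Hmgcs1, chr13:119690201-119690350, plus strand: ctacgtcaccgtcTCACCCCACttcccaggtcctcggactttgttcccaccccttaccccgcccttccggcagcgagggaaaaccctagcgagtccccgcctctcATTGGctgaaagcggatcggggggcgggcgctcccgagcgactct
Mvk and Mmab, chr5:114444028-114444268, plus strand: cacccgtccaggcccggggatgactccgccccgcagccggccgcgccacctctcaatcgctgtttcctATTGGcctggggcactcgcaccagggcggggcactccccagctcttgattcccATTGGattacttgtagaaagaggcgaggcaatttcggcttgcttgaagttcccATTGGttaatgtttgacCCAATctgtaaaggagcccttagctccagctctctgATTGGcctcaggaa

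The last stretch is the 241 bases between Mvk and Mmab, which start on opposite strands and share 5 CCAAT matches. Sqle, which makes squalene epoxide and is a rate-limiting step of the sterol branch, read 8.67 and 9.08 on the 6Y arrays and 6.05 and 5.50 on the 16Y arrays. It fell by 3.10 on the log2 scale (standard error 0.46, adjusted p = 0.0459), the largest difference in the list. Lss, which closes the sterol ring, read 7.97 and 8.52 in 6Y against 6.43 and 6.35 in 16Y. It differed by -1.85 (standard error 0.21, adjusted p = 0.0287). Mvk, the mevalonate kinase, read 7.39 and 7.61 against 6.12 and 6.43, and Tm7sf2, a sterol reductase, 9.25 and 9.43 against 8.54 and 8.47. Their differences were -1.23 (standard error 0.16, adjusted p = 0.0357) and -0.83 (standard error 0.12, adjusted p = 0.0412). Mmab, an enzyme of vitamin B12 metabolism and the neighbour of Mvk, read 7.38 and 7.26 against 6.40 and 6.53 and fell by 0.85 (adjusted p = 0.0339), and it was chosen after its values were seen.

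The other 13 did not pass. Those nearest to the threshold were Nsdhl, a sterol dehydrogenase (-2.29, adjusted p = 0.0503), Idi1, the isopentenyl diphosphate isomerase (-2.85, adjusted p = 0.0541), and Fdps, which makes farnesyl diphosphate (-2.03, adjusted p = 0.0548). Hmgcs1, the cytosolic HMG-CoA synthase, read 9.64 and 10.02 in 6Y against 8.14 and 7.85 in 16Y (-1.84, adjusted p = 0.0647). All 17 members had an unadjusted limma p under 0.05, against 6218 of the 35556 clusters. In no member did the groups overlap, and the list's median signal was 9.0 and 9.35 on the 6Y arrays and 7.58 and 7.2 on the 16Y arrays. The count of members called was 0 without 6Y-2, without either 16Y array and without either 42WKK array, 1 without 6Y-1 or either control array, and 13 without either 42Y array. It was 17 among clusters with a mean signal of at least 6, a setting that called 1904 of 11768 clusters. The median of the list stayed between -1.80 and -1.38 over the alternatives.

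**Figure D1:**
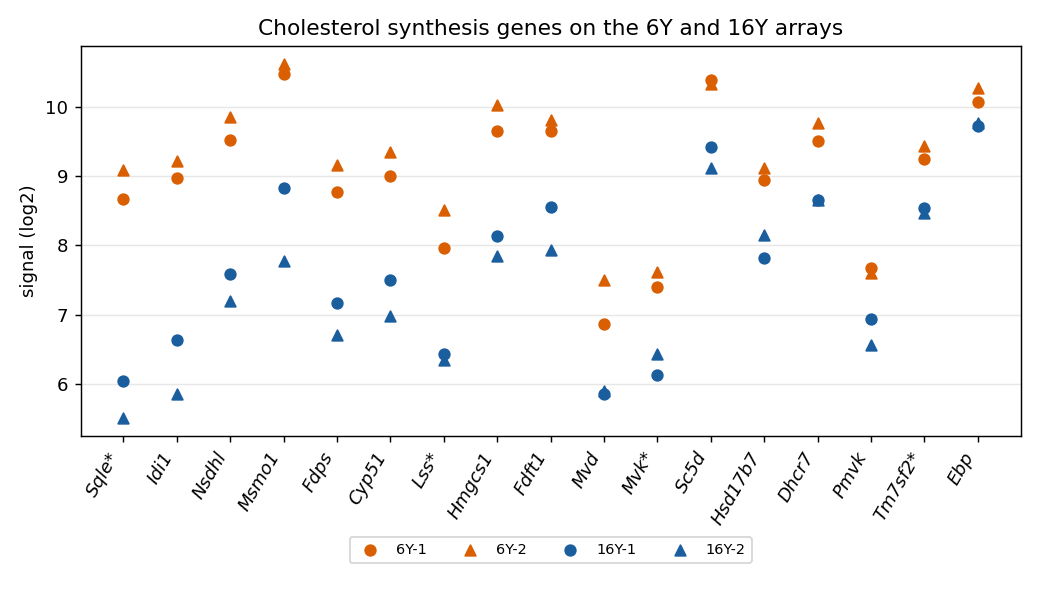
Signal (log2, y axis) of the 17 cholesterol synthesis genes with a value, ordered by their difference, on the 6Y arrays (orange) and the 16Y arrays (blue), 1 point per array; an asterisk marks the 4 genes called. Both blue points lie below both orange points for every gene shown, by most for Sqle and by least for Ebp.

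Beyond the pathway itself, Stard4, a sterol carrier and SREBP2 target, read 8.30 and 8.50 on the 6Y arrays, above its 16Y values of 7.42 and 6.95. It fell by 1.21 (standard error 0.17, adjusted p = 0.0411), as the sole call among 9 measured regulators and targets of SREBP2. Insig1, which holds SREBP in the endoplasmic reticulum and is itself a target, differed by -1.09 (adjusted p = 0.0559), and Srebf2, which encodes SREBP2, by -0.51 (adjusted p = 0.157). Rdh11, a retinol dehydrogenase, read 8.15 and 8.17 against 6.01 and 6.22 and fell by 2.05 (standard error 0.22, adjusted p = 0.0266).

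The position of the other arrays between the groups, on a scale with the 6Y mean at 0 and the 16Y mean at 1, differed for these 17 genes between the groups titled 42. The median position was -0.06 and 0.07 for the KK arrays 42WKK, and all 17 genes lay nearer to 6Y on both. It was 0.87 and 0.46 for the KK-Ay arrays 42Y, 0.23 and 0.28 for 6K, and 0.55 and 0.46 for the control arrays. The 2 arrays of 42Y did not read alike, with 16 and 5 of the 17 genes nearer to 16Y.

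Fatty acid and triglyceride synthesis had 2 of 20 genes lower and 0 higher, with 14 of 20 below in both arrays and a median difference of -0.58. Acly, which supplies cytosolic acetyl-CoA, read 9.55 and 9.50 in 6Y against 8.37 and 8.10 in 16Y and fell by 1.29 (standard error 0.18, adjusted p = 0.0412). Acaca, the acetyl-CoA carboxylase that makes malonyl-CoA, read 8.77 and 8.73 against 7.88 and 7.92 and fell by 0.85 (standard error 0.11, adjusted p = 0.0357), and its further cluster was also called, at -0.98 (adjusted p = 0.0387). Neither gene had overlapping groups. Of those that did not pass, Acacb differed by -0.85 (adjusted p = 0.0548), Elovl6 by -1.35 (adjusted p = 0.0666) and Fasn, the fatty acid synthase, by -1.18 (adjusted p = 0.101). Scd1, the stearoyl-CoA desaturase, read 12.75 and 12.69 against 12.64 and 12.69, so its groups differed by -0.06 (standard error 0.14, adjusted p = 0.872).

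Genes of lipid droplets stood on the other side of the scale. Plin4, a perilipin of lipid droplets, read 5.93 and 5.59 on the 6Y arrays and 8.26 and 8.29 on the 16Y arrays. It rose by 2.51 on the log2 scale (standard error 0.19, adjusted p = 0.00762) or 5.71-fold. Among 22 genes of lipid droplets and lipid uptake, 1 was called higher and 0 lower. Of the 12 droplet genes, 8 had both 16Y arrays above both 6Y arrays and 0 had both below, and their median difference was 0.85. Cidea and Fitm1, which enlarge and form droplets, differed by 2.19 (adjusted p = 0.188) and 1.34 (adjusted p = 0.067), Plin5 by 1.01 (adjusted p = 0.074), and Plin2, the common droplet coat of liver, by 0.10 (adjusted p = 0.829).

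Among 10 uptake genes 0 were called, with 4 above and 5 below, and they pointed in both directions. Cd36, a fatty acid translocase, read 6.63 and 6.83 in 6Y against 8.99 and 9.26 in 16Y (2.39, standard error 0.83, adjusted p = 0.198). Its groups did not overlap, and the control arrays, which enter the pooled error, read 8.46 and 5.33. Mogat1, which makes diacylglycerol from monoacylglycerol, differed by 2.53 (adjusted p = 0.0632), while Lpl, the lipoprotein lipase, read 8.58 and 7.69 against 5.62 and 5.67 (-2.49, adjusted p = 0.0513). Mfsd2a, which carries lysophosphatidylcholine with long unsaturated fatty acids, read 9.59 and 9.31 against 10.97 and 11.17. It rose by 1.62 (standard error 0.24, adjusted p = 0.0471 from limma). On the 6K arrays Mfsd2a read 7.96 and 9.46, and its call was lost in the fit with all 12 arrays. Fabp5, a fatty acid carrier, read 8.04 and 8.67 against 5.34 and 5.67 and fell by 2.85 (standard error 0.31, adjusted p = 0.0267), and its further cluster fell by 2.75 (adjusted p = 0.0209).

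Fatty acid oxidation and ketogenesis had 0 of 20 genes called by limma (8 at an unadjusted p under 0.05), with 11 above and 4 below and a median difference of 0.28. The members with the largest differences were the omega-hydroxylases and PPAR alpha targets Cyp4a10, at 7.15 and 7.70 against 9.29 and 9.38 (1.91, adjusted p = 0.105), and Cyp4a14, at 7.94 and 8.08 against 9.24 and 9.53 (1.37, adjusted p = 0.113). On the control arrays and on 42Y Cyp4a14 read from 3.72 to 4.84, below both groups compared. Pex11a, a peroxisome division factor outside the lists and chosen after its values were seen, read 8.96 and 8.94 against 10.03 and 10.07 and rose by 1.10 (adjusted p = 0.0343). Gpat4, a glycerol phosphate acyltransferase chosen in the same way, rose by 0.87 (adjusted p = 0.0471). Bile acid synthesis and transport had 0 of 23 genes called (11 at an unadjusted p under 0.05) and glucose metabolism 0 of 18 (5 unadjusted), with medians of 0.15 and -0.14.

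**Figure D2:**
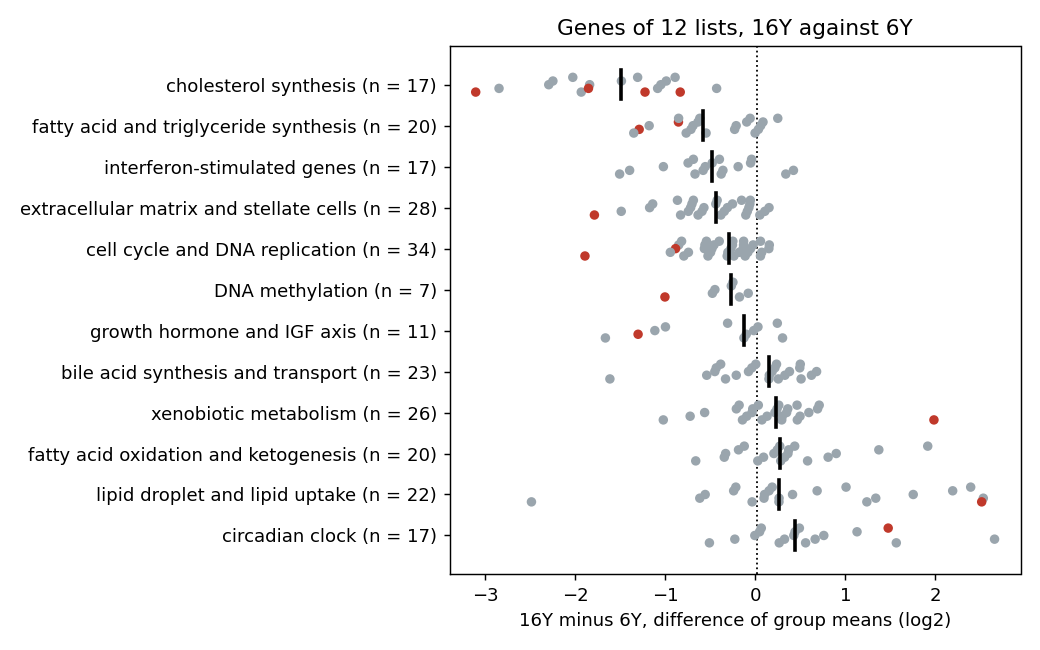
Difference between the 16Y and 6Y means (log2, x axis) for the genes of 12 lists, 1 point per gene, called genes in red and others in grey, with the list median as a black bar and the median of all genes (0.01) as a dotted line. Cholesterol synthesis has the lowest median (-1.49), and the circadian clock the highest (0.44).

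Among 16 fetal and imprinted growth genes, 2 fell, 1 rose and the median difference was 0.03. Igf2bp3, an RNA-binding protein of fetal tissues, read 6.88 and 6.27 in 6Y against 4.03 and 4.06 in 16Y. It fell by 2.52 (standard error 0.21, adjusted p = 0.0107). Mest, an imprinted gene expressed from the paternal copy, read 6.30 and 6.42 against 4.98 and 4.75 and fell by 1.5 (standard error 0.13, adjusted p = 0.0112). Meg3, an imprinted noncoding RNA expressed from the maternal copy, read 5.98 and 6.08 against 6.86 and 6.95 and rose by 0.87 (standard error 0.13, adjusted p = 0.0481). Igfbp3, a carrier of IGF1, read 7.99 and 8.30 against 6.69 and 6.99 and fell by 1.30 (standard error 0.18, adjusted p = 0.0397). Of 11 growth hormone and IGF axis genes no other passed. Igfals, its partner in the circulating complex, differed by -1.0 (adjusted p = 0.0548).

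Cell cycle and DNA replication had 2 of 34 genes lower and 0 higher, with 21 of 34 below and a median of -0.29. Ccnd1, the cyclin that takes cells out of G1, read 7.50 and 8.11 in 6Y against 5.93 and 5.90 in 16Y and fell by 1.89 (standard error 0.30, adjusted p = 0.0497). Mcm4, a subunit of the replicative helicase, read 5.44 and 5.34 against 4.55 and 4.46 and fell by 0.89 (standard error 0.12, adjusted p = 0.0387). Its partners Mcm7 and Mcm2 differed by -0.82 (adjusted p = 0.0527) and -0.57 (adjusted p = 0.0666). Rfc4, a clamp loader subunit, and Rrm1, a subunit of ribonucleotide reductase, both chosen after their values were seen, fell by 0.93 (adjusted p = 0.0357) and 0.87 (adjusted p = 0.0476).

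All 7 DNA methylation genes had lower means in 16Y, 6 of them in both arrays, and 1 was called, with a list median of -0.27. Dnmt3b, a de novo methyltransferase prominent in early development, read 6.00 and 6.05 in 6Y against 4.99 and 5.05 in 16Y and fell by 1.0 (standard error 0.13, adjusted p = 0.0339). Dnmt1, the maintenance methyltransferase and a gene the study followed, read 6.51 and 6.50 against 6.08 and 6.04 (-0.45, standard error 0.11, adjusted p = 0.0955). The other genes the study followed did not pass either. Nt5c2, a cytosolic nucleotidase, read 7.22 and 7.07 against 7.36 and 7.18, with overlapping groups (0.12, standard error 0.12, adjusted p = 0.655). Fut8, a fucosyltransferase, differed by -0.59 (standard error 0.14, adjusted p = 0.0937) and Insr, the insulin receptor, by 0.18 (standard error 0.11, adjusted p = 0.481). A further cluster of Insr differed by -0.03 (adjusted p = 0.935 from limma). Nt5e, the ecto-nucleotidase CD73, read 8.68 and 8.82 against 7.14 and 7.06 and fell by 1.65 (standard error 0.11, adjusted p = 0.00615).

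Of the extracellular matrix genes, those named here as called were lower in 16Y. Loxl4, a lysyl oxidase that crosslinks collagen, had the smallest p among genes called lower. It read 7.87 and 8.59 on the 6Y arrays and 4.36 and 4.63 on the 16Y arrays, a difference of -3.73 (standard error 0.22, adjusted p = 0.0048) or 13.3-fold. Its further cluster was called as well, at -3.51 (adjusted p = 0.0209). Sparc, a collagen-binding matrix protein, read 9.78 and 10.06 against 8.0 and 8.27 and fell by 1.79 (standard error 0.14, adjusted p = 0.00769). No other of 28 matrix and stellate cell genes was called, and 19 lay below in both arrays, with a median of -0.43. Of 9 collagens 8 lay below and 0 passed, as in Col3a1, at 6.65 and 7.25 against 5.80 and 5.75 (-1.17, adjusted p = 0.0548), and Col1a1 (-0.69, adjusted p = 0.106). Outside the list, Fstl1, a secreted glycoprotein, fell by 1.67 (standard error 0.18, adjusted p = 0.0264), and the basement membrane genes Nid1 and Lamc1, both chosen after their values were seen, by 1.14 (adjusted p = 0.0339) and 0.81 (adjusted p = 0.0471).

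Of the cell type markers, those of endothelium were lower on both 16Y arrays, while the sums for stellate and Kupffer cells overlapped between the groups. Endothelium was not alone. Summed signals were also lower on both 16Y arrays for hepatocytes (53491 and 52680 in 6Y against 48270 and 49618 in 16Y) and for the erythroid Alas2 (870 and 763 against 694 and 696). They were higher on both for T cells (70 and 70 against 83 and 81) and pancreas (71 and 71 against 77 and 81). All 4 endothelial markers lay below in both 16Y arrays and 0 were called (4 at an unadjusted p under 0.05), with a median of -0.94. Their summed linear signal was 1068 and 1398 on the 6Y arrays and 605 and 690 on the 16Y arrays. Lyve1 and Clec4g of the sinusoid differed by -1.36 (adjusted p = 0.0721) and -1.20 (adjusted p = 0.0548), from limma. A further, dim cluster of Clec4g did not follow, at 3.64 in 6Y and 3.63 in 16Y (-0.01, adjusted p = 0.981 from limma). Of 4 stellate markers, 3 lay below (summed signal 1135 and 1630 against 1193 and 1097), and of 6 Kupffer cell markers also 3 (572 and 937 against 597 and 672), with 6Y-2 the highest array in both sums. No marker signal is at 0 on an array of this kind. In bulk tissue fewer cells of a type and less RNA per cell cannot be told apart, and the part of these cells in the matrix values was not tested.

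Xenobiotic and sex-biased genes held some of the largest single differences. Cyp2b10, the main target of the receptor CAR, read 9.65 and 9.48 in 6Y against 11.55 and 11.55 in 16Y. It rose by 1.98 (standard error 0.18, adjusted p = 0.0177 from limma). On the other arrays it read 7.69 and 8.20 (42WKK), 9.465 and 9.342 (6K), 11.02 and 10.88 (42Y), and 11.16 and 10.86 (control). Of 26 xenobiotic genes no other passed, with 13 above, 3 below and a median of 0.23. Nr1i3, which encodes CAR, differed by 0.71 (adjusted p = 0.153). Cyp2c68, a further P450, read 8.96 and 9.07 against 6.78 and 6.43 and fell by 2.41 (standard error 0.23, adjusted p = 0.0189). It belongs to a family of similar genes, whose probes may share transcripts.

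Of 29 sex-biased liver genes, 1 rose and 2 fell, with a median of 0.05. Hsd3b5, a male-specific steroid enzyme of mouse liver, read 10.18 and 9.84 in 6Y against 8.22 and 8.05 in 16Y and fell by 1.87 (standard error 0.15, adjusted p = 0.00845). Susd4, a complement regulator that the list holds as male-biased, read 5.46 and 5.36 against 7.12 and 7.14 and rose by 1.73 (standard error 0.24, adjusted p = 0.0412). Abcd2, a peroxisomal fatty acid transporter that the list holds as female-biased, read 5.53 and 5.30 against 3.42 and 3.62 and fell by 1.90 (standard error 0.18, adjusted p = 0.0182). The male-biased genes called went both ways. Moxd1, a monooxygenase-like gene, read 3.77 and 4.16 against 8.17 and 8.99 (4.62, standard error 0.95, adjusted p = 0.0682), and the 2 control arrays disagreed with each other for it, at 5.69 and 9.20. Xist, which female cells express, read between 2.30 and 2.91 on all 12 arrays.

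The circadian clock had 1 of 17 genes higher and 0 lower, with 12 above and 2 below and a median of 0.44. Nr1d2, a repressor of the clock, read 6.62 and 6.32 in 6Y against 7.89 and 8.0 in 16Y and rose by 1.48 (standard error 0.18, adjusted p = 0.0325). Nr1d1, its partner, read 6.09 and 5.95 against 8.20 and 9.15 (2.66, standard error 0.46, adjusted p = 0.0548). Tef, an output factor, differed by 1.13 (adjusted p = 0.0571), and Dbp, another, by 0.44 (adjusted p = 0.573). The phase of the clock on an array depends on the hour of collection, which no source gives, and its part was not tested.

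Further large increases lay outside metabolism and the clock. Slc8a1, a sodium-calcium exchanger, read 2.62 and 3.69 in 6Y against 8.07 and 8.15 in 16Y and rose by 4.95 (standard error 0.57, adjusted p = 0.03). Its 6Y mean lay below the lower quartile of the signals on those arrays, so the difference was taken from a signal near the floor of the array. A further cluster of Slc8a1 did not follow, at 3.68 and 3.56 in the group means (-0.12, adjusted p = 0.812). Mrap2, an accessory protein of melanocortin receptors, read 3.55 and 3.31 against 6.05 and 6.41 and rose by 2.80 (standard error 0.17, adjusted p = 0.0048), again from 6Y values near that quartile. Orm3, of the acute phase orosomucoid family, read 4.91 and 6.25 against 8.33 and 8.87 and rose by 3.02 (standard error 0.48, adjusted p = 0.0497). Of 28 acute phase and coagulation genes no other was called, and their median was 0.07. Its 6Y arrays lay far apart, and it has close paralogs. Sema3e, a guidance factor, rose by 1.82 (standard error 0.17, adjusted p = 0.0179), and Naaladl2 by 1.68 (standard error 0.17, adjusted p = 0.0209), with 3 further clusters of Naaladl2 also called higher. Nox4, an NADPH oxidase, Gadd45g, a stress response gene, St3gal5, the ganglioside GM3 synthase, and the sulfotransferase Sult1d1 rose by 1.32, 1.34, 1.27 and 1.32. Their adjusted p from limma was 0.03, 0.0387, 0.0471 and 0.0412. For Gadd45g the 6K arrays lay apart, at 9.84 and 8.43, and 6K-1 lay above both 16Y arrays, at 8.86 and 8.91.

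**Figure D3:**
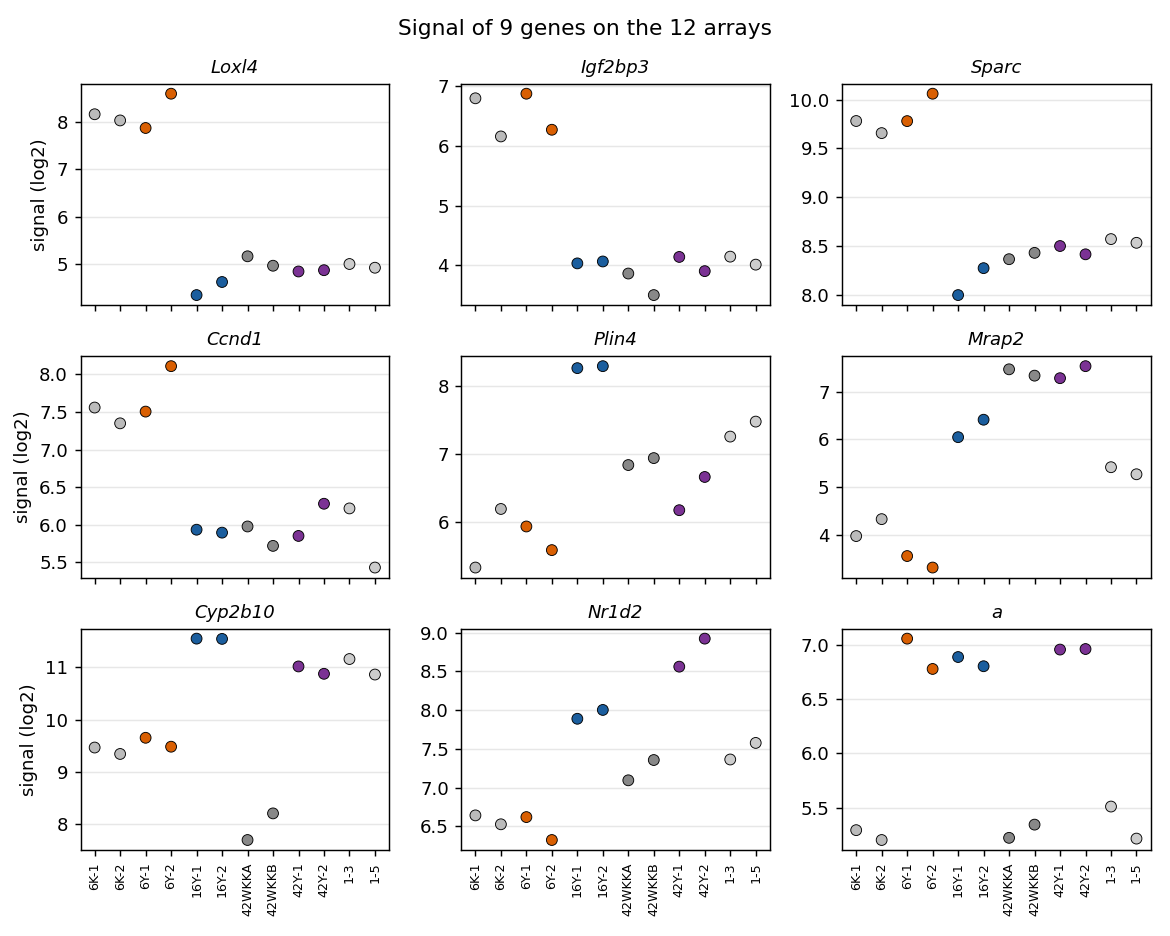
Signal (log2, y axis, a separate scale in each panel that does not start at 0) of 9 genes on each of the 12 arrays (x axis), with 6Y in orange, 16Y in blue, 42Y in purple and the other arrays in grey. Loxl4, Igf2bp3, Sparc and Ccnd1 are high on the 4 arrays titled 6 and lower on the other 8, Mrap2 is higher on the 4 arrays titled 42 than on any other, and agouti (a) is high on the 6 arrays titled Y.

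Interferon-stimulated genes had 0 of 17 genes called by limma (12 at an unadjusted p under 0.05), with 12 below and 1 above and a median of -0.48. Irgm1, an interferon-induced GTPase, differed by -0.75 (adjusted p = 0.0503) and Ifit1 by -1.40 (adjusted p = 0.061). Outside the list, and chosen after their values were seen, the RNA sensors Ifih1 and Ddx58 fell by 0.78 (adjusted p = 0.0454) and 0.74 (adjusted p = 0.0339), the GTPase Gbp8 by 1.34 (adjusted p = 0.0209), and Ifi35 by 0.75 (adjusted p = 0.0497). Lymphocyte genes had 0 of 11 called (2 unadjusted) and a median of 0.13, and antigen presentation genes 0 of 9 (2 unadjusted) and -0.21. Cdh1, the epithelial cadherin of periportal hepatocytes, read 8.90 and 8.78 against 7.98 and 7.75 and fell by 0.97 (standard error 0.14, adjusted p = 0.0412), alone among 17 zonation genes (median 0.02).

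Several further processes had 0 genes called by limma and, at an unadjusted p under 0.05, from 0 (metallothionein and iron) to 9 (amino acid catabolism and the urea cycle). They were macrophage and neutrophil genes (22 measured, median -0.06), chemokines (17, -0.16), apolipoproteins and lipoprotein assembly (16, 0.01), the unfolded protein and integrated stress responses (21, -0.05) and heat shock chaperones (10, 0.07). The same held for NRF2 targets (10, -0.16), metallothionein and iron genes (13, -0.04), immediate early genes (15, -0.09), insulin signalling (13, 0.06) and amino acid catabolism with the urea cycle (17, 0.03). The respiratory chain also had 0 of 16 called, with 11 below, 1 above and a median of -0.14. Among the genes named above, Idi1, Fdps, Hmgcs1, Ebp, Fasn, Scd1, Cd36, Cidea, Plin2, Col1a1, Moxd1 and Dbp are list members that were chosen for mention after their values were seen.

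The arrays that took no part in the difference were placed between the groups by the same scale, with 6Y at 0 and 16Y at 1. The 42WKK, 42Y and control arrays did enter the pooled error behind the calls, and 6K did not. The clusters were chosen by the difference that sets the scale, and positions over all clusters were not computed. The counts below therefore have no background beside them. The median position over the 194 called clusters was 0.05 and 0.17 for 6K, 0.39 and 0.44 for 42WKK, 0.63 and 0.63 for the control arrays, and 0.71 and 0.71 for 42Y. Both arrays of 6K lay nearer to 6Y at 172 of the 194 clusters and nearer to 16Y at 4. For 42Y these counts were 47 and 124, for 42WKK 107 and 70, and for the control arrays 60 and 110. Loxl4 is an example: it read 8.16 and 8.03 on the 6K arrays and 4.85 to 5.17 on the 42WKK, 42Y and control arrays. Igf2bp3 read 6.80 and 6.16 on 6K and 3.50 to 4.14 on those 6 arrays. For Plin4 both 16Y arrays lay above every other array, and the 8 arrays outside the comparison read 5.33 to 7.47. For Hsd3b5 they lay below every other array, and those 8 read 8.93 to 10.20.

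**Figure D4:**
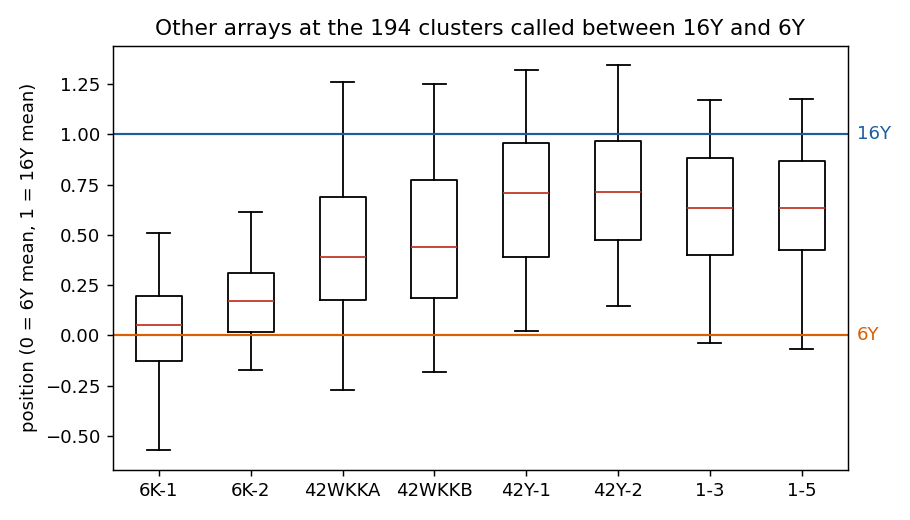
Position of the 8 other arrays (x axis) between the 6Y mean (0, orange line) and the 16Y mean (1, blue line) over the 194 called clusters (y axis, no unit); boxes span the quartiles with the median in red, and whiskers the 5th to 95th percentile. The 6K arrays sit at the 6Y end, with medians of 0.05 and 0.17, and the 42Y arrays nearest to the 16Y end, with medians of 0.71.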

How the data were processed

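The authors deposited 12 arrays as log2 signals per transcript cluster, from RMA-sketch (methods) in Affymetrix Expression Console (processing notes). An exon array is named in the methods, but the cluster numbers belong to a gene array. Genome build: not given in the sources used here. Cluster positions are therefore omitted.

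limma 3.58.1 (R 4.3.3; lmFit, eBayes) fitted 10 arrays in 5 groups without 6K, leaving 5 residual degrees of freedom. P-values were Benjamini-Hochberg adjusted over 35556 clusters (threshold 0.05). Each gene was represented by its brightest cluster on average, among clusters with 1 symbol. Named genes were the 15 largest calls in each direction whose groups did not overlap, up to 5 members of each list (called, then smallest p), the 3 smallest p in each direction, and agouti, Raly, Eif2s2, Nt5c2, Fut8, Dnmt1 and Insr. Members, lists and rule were chosen with earlier results of these data known, so lists were only described. The fit was checked on simulated data. Precision is limited by the number of arrays, which have no read depth. Alternatives changed the normalization, filter, variance trend, arrays fitted and test.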

Additional observations from a re-analysis of the deposited data

How the results depend on the processing

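Counts of called clusters moved with nearly every choice. Against 194 called (71 higher, 123 lower), centring gave 563 (104 and 459). Clusters with a mean of at least 6 gave 1904 of 11768 (661 and 1243), and clusters with 1 symbol 984 of 21789 (291 and 693). A variance trend gave 1133 (423 and 710) and all 12 arrays 634 (207 and 427). The arrays of 6Y, 16Y and 42Y gave 8 (7 and 1), and the 4 arrays of 6Y and 16Y alone 0 (5546 at an unadjusted p under 0.05). An ANOVA on those 4 arrays gave 0 after adjustment and 4243 (2129 and 2114) without. Leaving out 1 array gave 0 to 334 called, 0 to 164 higher and 0 to 170 lower. Quantile normalization gave 233 (98 and 135). Of the listed genes 23 were called, against 50, 117, 101, 84, 56, 1, 0, 0 and 146 in that order, and 0 to 35 with 1 array left out. Of the 194 clusters, 194 were also called with centring and with the trend, 170 with all 12 arrays, 169 with quantile normalization, 134 and 125 under the filters on symbols and mean, and 8 with the 6 arrays. With 1 array left out, 171 were shared without a 42Y array, 48 without a control array, 15 without a 42WKK array and 0 to 15 without a 6Y or 16Y array.

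Replicate numbers did not pair the arrays, since the deviations of same-numbered arrays correlated at 0.05 (6Y with 16Y), 0.03 (6Y with 42Y) and -0.04 (16Y with 42Y). With the replicate block 113 clusters were called, 63 higher and 50 lower, and 11 listed genes, with 81 of the 194 shared. Of the genes named, Mrap2 lost its call in 3 of 19 alternatives and Loxl4 in 4 of 19, while Ifi35 lost it in 14 of 20, Cdh1, Orm3 and Gadd45g in 13 of 20 and Egln3 in 13 of 19. Among the lipid genes, Sqle, Tm7sf2, Stard4, Acly and Acaca lost it in 12 of 20. Mvk and Mfsd2a lost it in 11 of 20, Lss in 8 of 20 and Plin4 in 6 of 20. No called gene named in the text turned its direction in the alternatives run. Of those not called, agouti ranged from -0.213 to 0.067, Raly from -0.164 to 0.02 and Plin2 from -0.09 to 0.282 with 1 array left out; the sign turned without 6Y-1 for agouti and without 16Y-2 for Raly and Plin2. The causes were not tested.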

Other observations

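Of the called clusters without a gene symbol, 30 were higher and 19 lower in 16Y, against 37 and 97 of those with 1 symbol, and 16 of the 30 had a mean signal under 6. This difference was not tested. Mir122, the hairpin of the main microRNA of liver, read 5.57 and 5.45 on the 6Y arrays against 3.93 and 4.02 on the 16Y arrays and fell by 1.54 (standard error 0.18, adjusted p = 0.0325 from limma). On 6K it read 3.68 and 6.36, so arrays of 1 group differed for it by more than 6Y and 16Y did.

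The genes in this paragraph are in no list and were chosen after their values were seen, with adjusted p from limma. Psma1 and Psmd14, subunits of the proteasome, fell by 0.67 (adjusted p = 0.0412) and 0.79 (adjusted p = 0.0357). Egln3 and Ndrg1, genes that low oxygen induces, fell by 0.74 (adjusted p = 0.0412) and 1.32 (adjusted p = 0.0385). Car2, a carbonic anhydrase, fell by 1.2 (adjusted p = 0.0248). Npr2, a natriuretic peptide receptor, read 6.17 and 6.34 in 6Y, below its 16Y values of 7.46 and 7.42, and rose by 1.19 (adjusted p = 0.0209), and the 42WKK, 42Y and control arrays read 7.57 to 7.85.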
